A study of Homo sapiens with 4 samples.

Results

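The 10 genes described here encode the cohesin ring, the proteins that load, hold or release it, and CTCF. They are RAD21, SMC1A, SMC3, STAG1, STAG2, NIPBL, WAPL, PDS5A, PDS5B and CTCF, and they are 10 of the 23622 genes of an RNA sequencing table of MV4-11 cells, a human acute myeloid leukemia line. Each was found by its symbol, and all 10 had a row and passed the filter on low values. The group was selected on the measured difference between IRF1 knockdown and control libraries, so its values for that contrast are a description and are not read as a test.

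The table held 2 control libraries, NC 1 and NC 2, and 2 libraries with knockdown of IRF1 (interferon regulatory factor 1, a transcription factor), sh-IRF1 1 and sh-IRF1 2. All 4 carried the genotype label WT. The labels gave the NC libraries no treatment, while the column names and the methods of the study called that control sh-NC, a hairpin control. Knockdown used lentiviral short hairpin RNA in the pLKO.1 vector with puromycin selection. The study's methods state in general that experiments were repeated independently. They do not say whether the 2 libraries of a group came from separate cultures, so their spread may be technical. These were bulk libraries, in which fewer cells of a type and less RNA per cell cannot be told apart.

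The study lists 2 hairpin sequences against IRF1, and they are shown because they define the perturbation. The labels do not say which hairpin was used in which sh-IRF1 library. Both sequences lay in coding exons of IRF1 on the minus strand of hg38, the first in exon 7 at chr5:132486284-132486304 and the second in exon 8 at chr5:132485672-132485692, with exons numbered along the canonical transcript.
sh-IRF1#1: gcaccagtgatctgtacaact
sh-IRF1#2: ggaaattacctgaggacatca
Neither 21-base sequence was found, on either strand, in any annotated transcript of the 10 genes, which gave 0 members with a match for each hairpin. Only exact matches of all 21 bases were sought, and shorter or mismatched pairing was not tested.

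Cohesin is a ring of SMC1A, SMC3 and the kleisin RAD21, which closes the gap between the SMC heads, together with a STAG1 or STAG2 subunit. It holds sister chromatids together until anaphase and, in interphase, extrudes chromatin loops. NIPBL loads the ring and drives its movement along DNA, WAPL releases it, and PDS5A and PDS5B bind the ring and take part in both its release and its stable holding. CTCF, a zinc finger protein, binds DNA and halts the moving ring, so that loop ends and domain borders form at its sites. Genes of the ring, STAG2 foremost, are recurrently mutated in myeloid leukemia.

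The libraries held between 17635908 and 18695337 reads. The deposited values were reads divided by 1 size factor per library, and they are called normalized counts here. Genes of the mitochondrial genome took 3.923 to 4.506% of the reads. IRF1 itself had 784.73 and 738.5 normalized counts in NC and 429.71 and 431.94 in sh-IRF1, a mean of 56.57% of NC (log2 fold change -0.82, SE 0.0904, limma adjusted p = 1.69e-10). IRF1 shares 22.9% of its exonic bases with antisense transcripts, and whether counting used strand is not given in the sources used here. All 8 markers of the myeloid leukemia line reached 10 normalized counts in every library, with sums from 31203.8 to 31334.9 in NC and from 27349.2 to 27531.5 in sh-IRF1. FLT3 carried most of the sum, and some markers moved, in both directions. FLT3 was at 72.92, PTPRC at 71.6 and MPO at 37.34% of NC in sh-IRF1, and LYZ at 179.94 and SPI1 at 112.79%. CD33, HOXA9 and MEIS1 stayed nearer to control, at 102.12, 95.5 and 92.65%. The T cell (CD2, CD3D, CD3E) and erythroid (GATA1, HBB) markers and MS4A1, EPCAM, COL1A2 and COL3A1 were not analysed here. The B cell marker CD79A had 50.26 and 43.14 normalized counts in NC and 189.99 and 250.17 in sh-IRF1. The epithelial keratins KRT8 and KRT18 summed to 253.7 to 391.9, and COL1A1, a fibroblast marker, stayed at or below 5.0. The part of these markers in the values below was not tested.

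RAD21, SMC3 and STAG2 were at 57.02, 63.02 and 69.28% of NC in the sh-IRF1 libraries, while SMC1A, the partner of SMC3 in the same ring, was at 113.2%. The loader and the release factors lay closer to control, between 81.94% for WAPL and 92.83% for NIPBL. CTCF was at 92.91%. In 9 of the 10 genes both sh-IRF1 libraries were below both NC libraries, as in 35.0% of all tested genes, and in SMC1A both were above, as in 34.2%. Fold changes are from limma on log2(normalized count + 1) over the 14120 genes with at least 10 normalized counts in at least 2 libraries. A gene was called at an adjusted p under 0.05 and a log2 fold change beyond 0.5. By that rule 3 members were lower and 0 higher, beside 7.56 and 8.27% of all tested genes. At an adjusted p under 0.05 and any fold, 7 were lower and 1 higher, beside 21.9 and 20.3%, and STAG1 and CTCF passed in neither direction. The median log2 fold change was -0.21 over the 10 members and -0.0019 over all tested genes. Because this contrast chose the members, nothing is read from these counts or medians. With 2 libraries against 2, an exact permutation test of a single gene cannot give a two-sided p below 0.33.

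**Figure D1:**
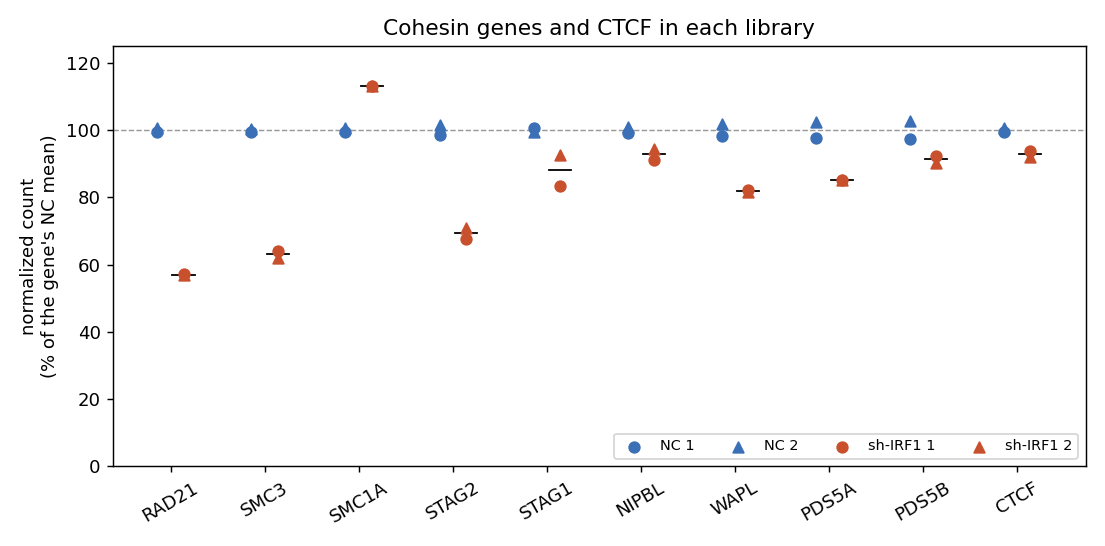
Normalized count of each cohesin gene and CTCF in each library, as a percentage of the gene's mean over the 2 NC libraries (y axis). Circles and triangles are replicates 1 and 2, blue NC and red sh-IRF1, and black lines are sh-IRF1 means. RAD21, SMC3 and STAG2 sit at 57.02, 63.02 and 69.28% of NC, and SMC1A alone sits above 100%.

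RAD21, the kleisin that separase cuts at anaphase, had the highest level per length and the largest fold change of the members. It had 24058.91 and 24311.82 normalized counts in NC and 13842.34 and 13737.85 in sh-IRF1. The lower NC library was far above the higher sh-IRF1 library, and the libraries within a group lay close together (SD 178.83 in NC and 73.88 in sh-IRF1, n = 2 each). The log2 fold change was -0.81 (SE 0.0254), and leaving out any 1 library moved it only between -0.82 and -0.80. In recovered reads, RAD21 rested on 13916 to 23670 reads per library. RAD21 shares 5.9% of its exonic bases with MIR3610 and the antisense genes RAD21-AS1 and UTP23. RAD21-AS1 had 20.52 and 11.3 normalized counts in NC and 0.0 and 4.68 in sh-IRF1.

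SMC3 and SMC1A form the 2 long arms of the ring. SMC3 had 3224.06 and 3252.87 normalized counts in NC and 2072.97 and 2008.86 in sh-IRF1, with no overlap. Its log2 fold change was -0.67 (SE 0.0461), between -0.69 and -0.64 with any 1 library left out. The processed pseudogene SMC3P1 had 0.432 to 1.17% as many normalized counts as SMC3. How reads that match both copies were counted is not given in the sources used here, so this share does not measure them. SMC1A went the other way. It had 5287.96 and 5351.27 normalized counts in NC and 6021.95 and 6021.9 in sh-IRF1. Its log2 fold change of 0.18 (SE 0.0351) stayed between 0.17 and 0.19 with any 1 library left out.

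The STAG subunits are alternatives of each other, and a ring carries either STAG1 or STAG2. STAG2 had 4062.13 and 4187.55 normalized counts in NC and 2792.14 and 2923.35 in sh-IRF1, with a log2 fold change of -0.53 (SE 0.0421). That lies close to the fold limit of the call: with libraries rescaled to equal total reads it was -0.48, and without sh-IRF1 1 it was -0.4964, and STAG2 was then not called. STAG1 had 684.2 and 677.9 normalized counts in NC and 567.98 and 630.58 in sh-IRF1, and rested on 571 to 673 reads per library. Both sh-IRF1 values were below NC, but the sh-IRF1 libraries differed from each other (SD 44.27) by more than those of NC did (SD 4.46). The log2 fold change of STAG1 was -0.19 (SE 0.0867) and ranged from -0.26 to -0.11 with 1 library left out. PCCB, an enzyme gene on the opposite strand, shares 21.2% of the exonic bases of STAG1 and had 1785.9, 1776.91, 1964.55 and 1788.68 normalized counts in the 4 libraries, so the STAG1 count is uncertain.

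NIPBL and WAPL act against each other on the ring. NIPBL had 4709.41 and 4799.71 normalized counts in NC and 4334.93 and 4492.77 in sh-IRF1. The groups did not overlap, yet the log2 fold change was only -0.11 (SE 0.0380), and its adjusted p was no longer under 0.05 with equal total reads (-0.06), without NC 2 (-0.09) or without sh-IRF1 1 (-0.08). WAPL had 3186.11 and 3308.34 in NC and 2669.79 and 2651.62 in sh-IRF1. Its log2 fold change of -0.29 (SE 0.0440) lay between -0.31 and -0.24 under every alternative run.

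PDS5A and PDS5B are paralogs that sit on RAD21. PDS5A had 6395.81 and 6690.63 normalized counts in NC and 5566.38 and 5571.22 in sh-IRF1, and its log2 fold change was -0.23 (SE 0.0350). PDS5B had 4484.76 and 4724.73 in NC and 4253.37 and 4156.4 in sh-IRF1, and its log2 fold change was -0.13 (SE 0.0390). Both paralogs had non-overlapping groups. For PDS5B the adjusted p was no longer under 0.05 with equal total reads (-0.09), without NC 2 (-0.09) or without sh-IRF1 2 (-0.11).

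CTCF had 2736.81 and 2768.08 normalized counts in NC and 2581.26 and 2533.57 in sh-IRF1. Both sh-IRF1 libraries were below NC, with a log2 fold change of -0.11 (SE 0.0454) and an adjusted p not under 0.05. The adjusted p was just under 0.05 with TMM scaling, with a filter at 50 normalized counts and with the replicate number as a block. This describes the fit and is not read as a test. An antisense transcript, ENSG00000237718, shares 13.1% of the exonic bases of CTCF, which leaves the CTCF count uncertain to that extent.

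**Figure D2:**
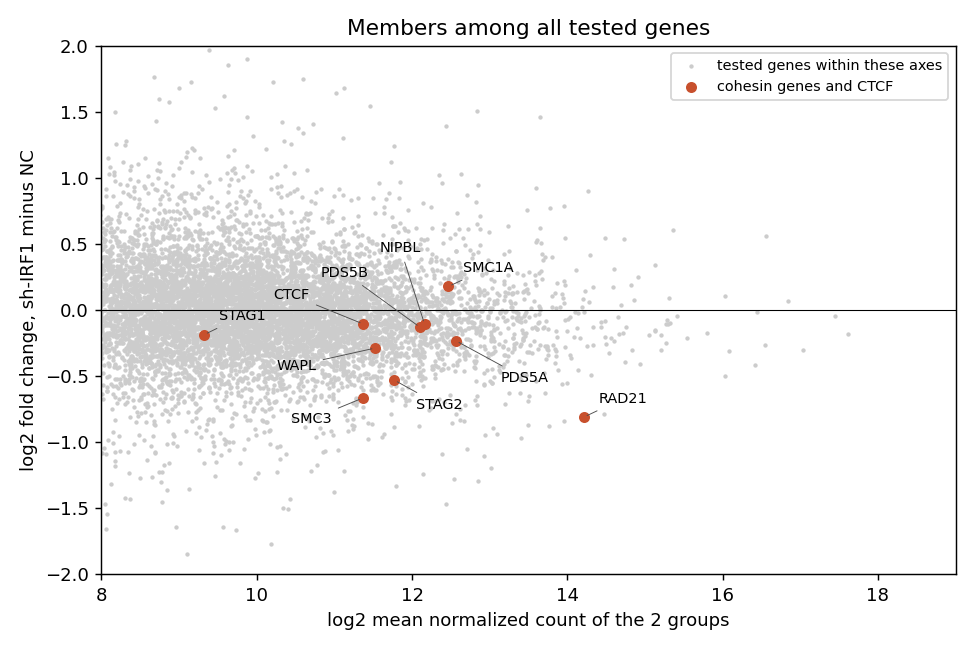
Log2 fold change, sh-IRF1 minus NC (y axis), against the log2 mean normalized count over both groups (x axis). Tested genes are in grey, and the 10 members, CTCF among them, are in red. Genes outside the axis limits are not drawn. RAD21 lies far to the right at -0.81, SMC3 and STAG2 lie below -0.5, and SMC1A is the single member above 0.

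Levels of different genes were compared as reads scaled to exon length and to the library's total reads (RPKM), with the union of all annotated exons as length. In NC the order was RAD21 (92.85 ± 0.544, SD, n = 2), PDS5A (29.6 ± 0.898), SMC1A (27.12 ± 0.187), WAPL (24.89 ± 0.624) and NIPBL (20.97 ± 0.249). PDS5B (19.28 ± 0.681), CTCF (15.04 ± 0.0977), STAG2 (14.25 ± 0.284), SMC3 (11.53 ± 0.0548) and STAG1 (4.795 ± 0.0388) followed. No neighbours in this order had overlapping NC values. In sh-IRF1 the RPKM of RAD21 was 54.6 and that of SMC1A 31.66, which put SMC1A in place 2 above PDS5A at 25.99. The other members kept their order.

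The RPKM scale depends strongly on the length used. The NC level of RAD21 was 4.82 times the median of the other 9 members with the union of exons (14382 bases), 5.43 times with the longest transcript (8316 bases) and 11.3 times with the canonical transcript (3660 bases). RAD21 came first and STAG1 last with all 3 lengths, while the genes between them changed places. SMC3, for example, was in place 9 by union of exons, 8 by longest transcript and 6 by canonical transcript.

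**Figure D3:**
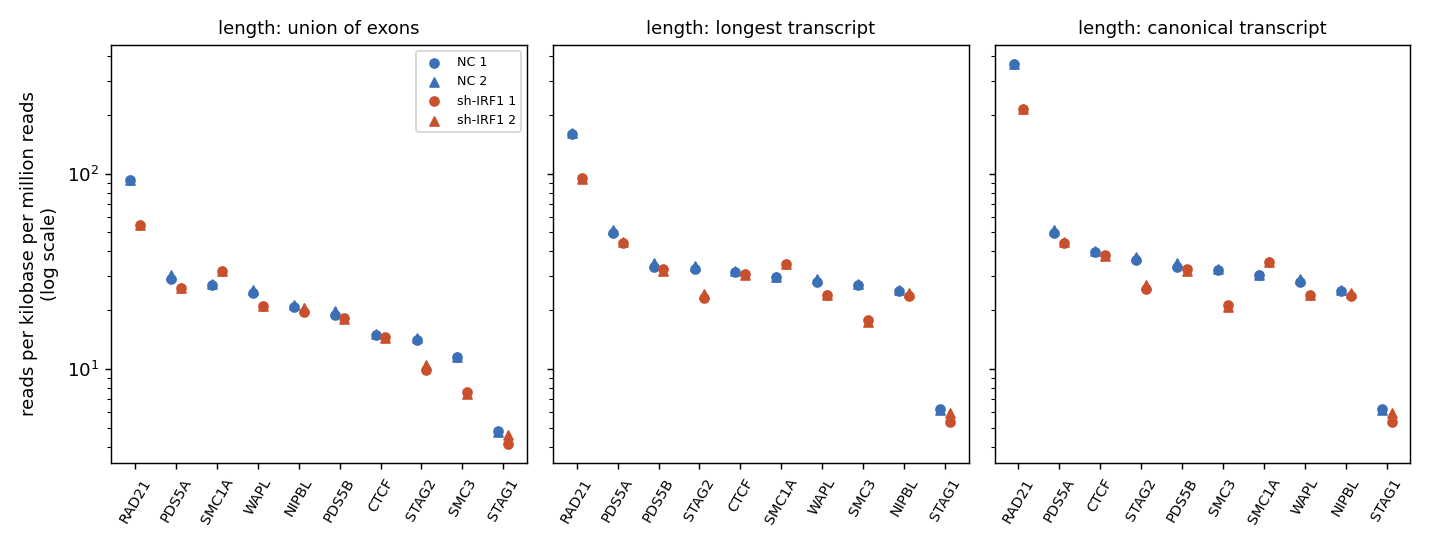
RPKM of each member in each library (y axis, log scale), with genes ordered by their NC mean, under 3 definitions of gene length. RAD21 is first and STAG1 last in every panel, and the order between them changes from panel to panel.

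Ratios within a library do not depend on how the library was scaled. The log2 ratio of SMC1A to SMC3, both per length, was 1.23 and 1.24 in NC and 2.06 and 2.10 in sh-IRF1, a difference of 0.84 (pooled SD 0.0227). Lengths here are the union of exons: the difference between groups is the same with any length, but the ratio itself is not. By canonical transcript SMC1A and SMC3 were at 30.25 and 32.38 RPKM in NC and at 35.32 and 21.05 RPKM in sh-IRF1. The ratio of RAD21 to SMC3 moved far less, from 3.01 in both NC libraries to 2.85 and 2.88, a difference of -0.14 (pooled SD 0.0172). RAD21 and SMC3 were thus lower by similar but not equal factors.

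The log2 ratio of STAG1 to STAG2 was -1.54 and -1.60 in NC and -1.27 and -1.18 in sh-IRF1, a difference of 0.34 (pooled SD 0.0510). As a share of STAG1 and STAG2 together, STAG1 made up 25.6 and 24.8% in NC and 29.3 and 30.5% in sh-IRF1 by union of exons. By canonical transcript the shares were 14.7 and 14.2% in NC and 17.2 and 18.0% in sh-IRF1. STAG2 remained the main STAG transcript in every library by either length. The log2 ratio of NIPBL to WAPL was -0.23 and -0.26 in NC and -0.10 and -0.04 in sh-IRF1, a difference of 0.18. That of PDS5A to PDS5B was 0.62 and 0.61 in NC and 0.50 and 0.53 in sh-IRF1, a difference of -0.10. The groups were apart in all 5 ratios, and the members were chosen on this contrast, so no test is given.

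**Figure D4:**
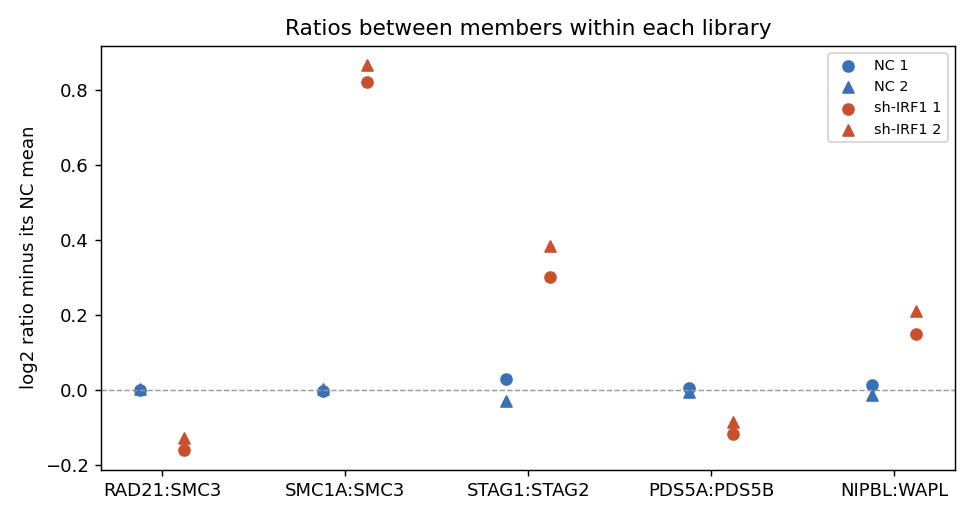
Log2 ratio between pairs of members in each library, minus its mean over the 2 NC libraries (y axis). Circles and triangles are replicates 1 and 2, blue NC and red sh-IRF1. The ratio of SMC1A to SMC3 is the one displaced furthest, by 0.84 on average in sh-IRF1, and no pair has overlapping groups.

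Of 15 other genes of the cohesin cycle that were listed, 13 were tested. At an adjusted p under 0.05, 3 fell and 5 rose, beside 21.9 and 20.3% of all tested genes. Past the fold limit as well, 1 fell and 0 rose, beside 7.56 and 8.27%. The list is small, and nothing is read from these counts. Its median log2 fold change was 0.17. Of those that rose, DSCC1, part of a clamp loader used in cohesion establishment, went from 1076.06 and 1005.55 to 1455.26 and 1434.5 normalized counts (log2 fold change 0.47, SE 0.0636, limma adjusted p = 2.45e-08). CDCA5, also called sororin, which shields the ring from WAPL, rose from 1660.76 and 1409.2 to 1971.51 and 2081.01 (0.40, SE 0.0596, limma adjusted p = 1.9e-07). The acetyltransferase ESCO2, the helicase DDX11 and the NIPBL partner MAU2 also rose, by 0.29, 0.27 and 0.12 on the log2 scale.

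The genes that fell were REC8, SGO1 and PTTG1. REC8, the meiotic kleisin, had 60.52 and 58.55 normalized counts in NC and 26.86 and 38.42 in sh-IRF1 (log2 fold change -0.87, SE 0.3158, limma adjusted p = 0.0231), and the call was lost with DESeq2 and without NC 1, NC 2 or sh-IRF1 1. PTTG1, or securin, the inhibitor of the separase that cuts RAD21, went from 1128.37 and 1069.23 to 1021.56 and 906.05 (-0.19, SE 0.0708, limma adjusted p = 0.0261), and no longer passed the adjusted p limit under 4 alternatives. SGO1, the centromeric protector of cohesin, fell by 0.33 on the log2 scale, with 15.8% of its exonic bases shared with an antisense gene. With DESeq2, 0 genes of this list were lower at an adjusted p under 0.05. With equal total reads only 1 was, REC8, so SGO1 passed under neither alternative. ESPL1, the separase itself, had a log2 fold change of 0.01 (SE 0.0557). SMC1B, the meiotic form of SMC1A, did not pass the filter, with 6.15, 5.14, 6.96 and 15.93 normalized counts in NC 1, NC 2, sh-IRF1 1 and sh-IRF1 2. RAD21L1, another meiotic kleisin, was not analysed here.

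Condensin and the SMC5/6 complex are the other rings of the SMC family. Of 15 listed genes 14 were tested, 2 fell and 4 rose at an adjusted p under 0.05, and 0 in either direction passed the fold limit as well (2 fell and 6 rose at an unadjusted limma p under 0.05, and DESeq2 and edgeR also called 0 past the fold limit). Over all tested genes, 21.9% fell and 20.3% rose by the adjusted p, and 7.56 and 8.27% also passed the fold limit. The median log2 fold change of the list was 0.05. SMC4, the condensin arm, went from 6823.56 and 7038.82 normalized counts to 5452.98 and 5575.91 (log2 fold change -0.33, SE 0.0346, limma adjusted p = 4.37e-11). The condensin subunit NCAPG fell from 2198.27 and 2131.26 to 1762.62 and 1816.78 (-0.27, SE 0.0514, limma adjusted p = 1.87e-05). NCAPH2, of condensin II, rose from 1198.12 and 1313.68 to 1659.17 and 1655.63 (0.40, SE 0.0600, limma adjusted p = 2.62e-07). These 3 genes share 22.0, 33.7 and 27.2% of their exonic bases with other genes, so their counts are uncertain. NSMCE1, a ubiquitin ligase subunit of SMC5/6, rose from 644.2 and 494.04 to 713.2 and 713.97 (0.34, SE 0.0945, limma adjusted p = 0.00301), but by 0.15, and without passing, once NC 2 was left out.

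Across the SMC proteins the log2 fold changes were thus 0.18 for SMC1A, 0.06 for SMC2, -0.67 for SMC3, -0.33 for SMC4, 0.14 for SMC5 and 0.20 for SMC6, of which SMC2 and SMC5 did not pass the test. EID3, an SMC5/6 subunit, had 0 normalized counts in 3 libraries and 1.87 in sh-IRF1 2, and was not tested.

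Proteins that share sites or complexes with CTCF were the third list. Of 13 listed genes 12 were tested, and 7 fell and 2 rose at an adjusted p under 0.05, beside 21.9 and 20.3% of all tested genes. Past the fold limit as well, 2 fell and 0 rose, beside 7.56 and 8.27%. The list was chosen with earlier results of these data known, so nothing is read from these counts. Its median log2 fold change was -0.19. SMARCA5, the remodeller that spaces nucleosomes around CTCF sites, fell from 2833.24 and 2988.91 to 2021.24 and 1903.92 normalized counts (log2 fold change -0.57, SE 0.0487, limma adjusted p = 1.03e-13), and antisense genes share 11.1% of its exonic bases. ADNP, which competes with CTCF for sites in repeats, fell from 4401.67 and 4665.16 to 3138.3 and 3122.92 (-0.53, SE 0.0410, limma adjusted p = 3.1e-15). With equal total reads (-0.49) or without NC 2 (-0.49) ADNP fell short of the fold limit and was not called. CHD8 and WIZ rose, CHD8 from 2304.95 and 2228.84 to 2610.11 and 2646.0 (0.21, SE 0.0471, limma adjusted p = 0.000212) and WIZ from 2546.01 and 2544.16 to 2850.83 and 2875.56 (0.17, SE 0.0450, limma adjusted p = 0.00181). The site-binding factors YY1, VEZF1 and ZNF143 fell by 0.14, 0.30 and 0.38 on the log2 scale, and the topoisomerase TOP2B and the remodeller BPTF by 0.25 and 0.23. CTCFL, the paralog of CTCF, was not analysed here.

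**Figure D5:**
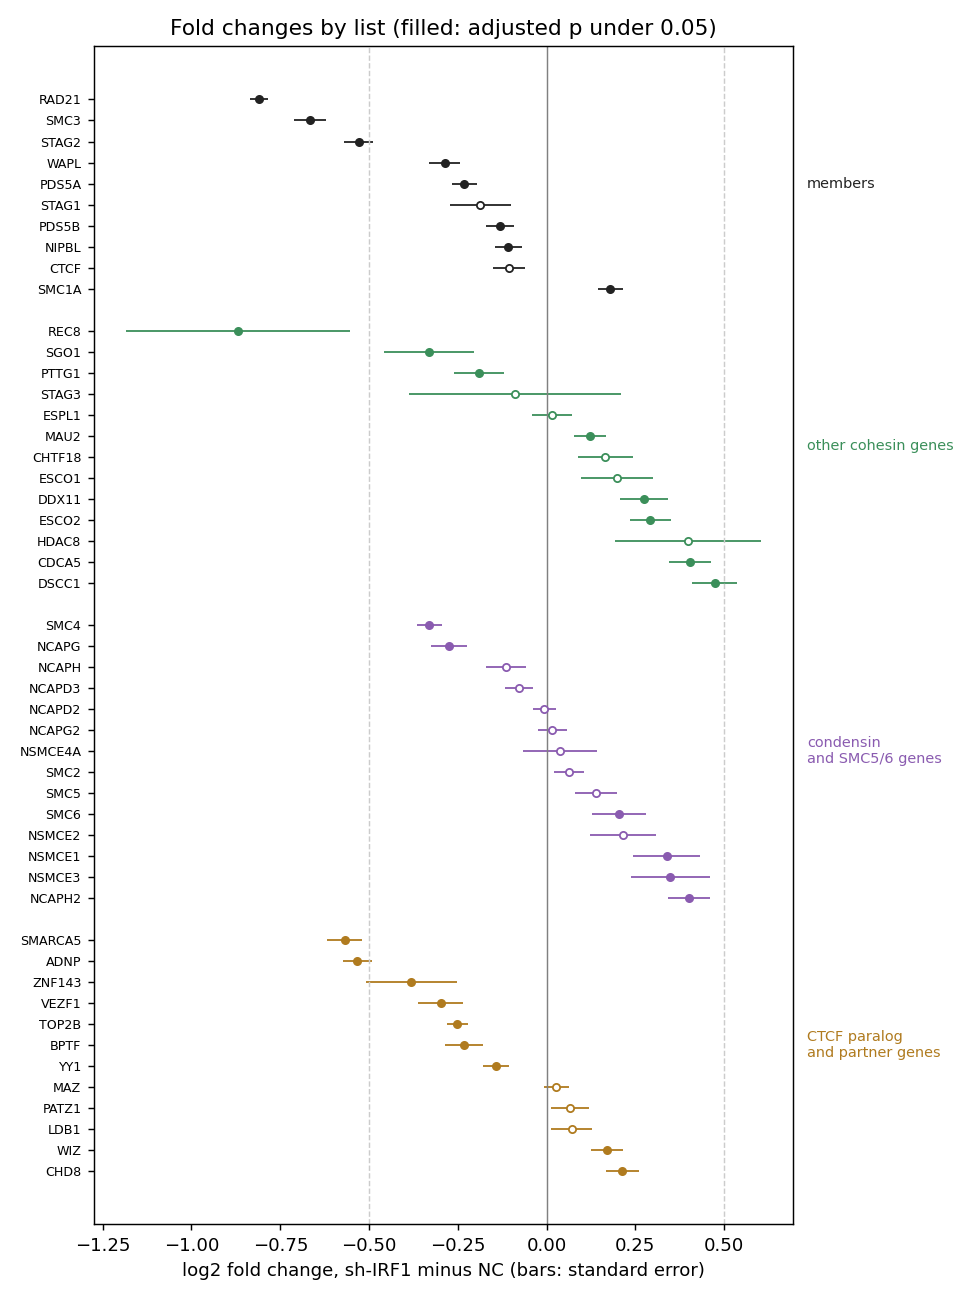
Log2 fold change, sh-IRF1 minus NC (x axis), of each tested gene in the 4 lists, with bars of 1 standard error from limma. Filled points had an adjusted p under 0.05, and dashed lines mark 0.5 in each direction. The other cohesin genes and the condensin and SMC5/6 genes spread on both sides of 0, with medians of 0.17 and 0.05.

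The genes whose 4 values ran closest to those of RAD21 were sought among 9986 genes with a mean of at least 100 normalized counts, as the smallest root mean square distance between log2 values centred on each gene's own mean. They were VLDLR (0.00779), a lipoprotein receptor, FASN (0.0159), the fatty acid synthase, RCN1 (0.0172), an endoplasmic reticulum calcium-binding protein, TRIB3 (0.0177), a stress-induced pseudokinase, and HMGB1 (0.0193), a chromatin protein. With 4 libraries in 2 groups this measure finds mainly genes with a like fold change, here -0.78 to -0.84 against -0.81 for RAD21. FASN had 28521.11 and 29104.34 normalized counts in NC and 16599.66 and 16789.56 in sh-IRF1.

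The choice of members did not use the sequence of the genes. Most of the 10 members are long and AT-rich. The longest quartile (4766 bases or more) of the 14055 tested genes with a canonical transcript length held 8, all except RAD21 and CTCF. In GC content, 8 were in the lowest quartile (42.09% or less), all except SMC1A (47.0%) and CTCF (47.4%). SMC2, SMC4, SMC5 and SMC6 were also long and low in GC (5116 to 5949 bases, 36.5 to 37.6%). Other cohesin genes varied, for example CDCA5 (2475 bases, 55.1%), ESCO2 (3754 bases, 37.4%) and MAU2 (4845 bases, 57.2%). GC content moved with the contrast over all genes. The median log2 fold change was -0.08 in the lowest GC quartile, where 27.8% of genes fell and 14% rose by the adjusted p, and 0.04 in the highest, where 19.9% fell and 25.3% rose. Among the 1330 genes both long and low in GC, the median was -0.06, and 30.6% fell and 18.9% rose. The part of GC content in the members' values was not tested.

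Promoter windows of 250 bases upstream of the RefSeq start (GRCh38.p14) were found for 9 of the 10 members, all except RAD21. For STAG2 the nearest RefSeq start lay 352 bases from the canonical start, and its window lay inside the annotated gene. The 3 motifs searched on both strands were GAAANNGAA (like the site of IRF factors), CACGTG (an E-box) and CCGGAAGT (like the site of ETS factors). The IRF-like motif and the E-box were in 0 of the 9 windows, taking for each gene the window nearest its canonical start, and the ETS-like motif was in 1, that of NIPBL, starting 13 bases upstream of the start. Over 35116 promoters these motifs were in 6.9, 6.3 and 3.4% of windows, and over the 14610 promoters of tested genes in 5.7, 8.4 and 6.4%. A match or its lack says only whether these letters are in this window.

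The windows of SMC3, SMC1A and NIPBL are printed as one gene that was lower, the one that was higher and the one with a motif, each the window nearest the canonical start and limited to bases outside the annotated gene. They lie at chr10:110567445-110567683 on the plus strand, at chrX:53422729-53422904 on the minus strand and at chr5:36876519-36876768 on the plus strand, and capitals mark the ETS-like motif, which is read on the opposite strand.
SMC3: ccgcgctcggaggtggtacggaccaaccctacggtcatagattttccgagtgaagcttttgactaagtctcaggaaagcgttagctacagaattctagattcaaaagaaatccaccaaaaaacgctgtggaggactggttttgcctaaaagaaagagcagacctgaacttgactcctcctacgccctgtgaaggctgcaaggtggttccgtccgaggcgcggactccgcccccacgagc
SMC1A: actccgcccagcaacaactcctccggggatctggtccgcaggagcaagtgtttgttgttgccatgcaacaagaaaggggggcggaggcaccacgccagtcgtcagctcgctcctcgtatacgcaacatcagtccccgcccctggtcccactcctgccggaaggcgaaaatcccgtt
NIPBL: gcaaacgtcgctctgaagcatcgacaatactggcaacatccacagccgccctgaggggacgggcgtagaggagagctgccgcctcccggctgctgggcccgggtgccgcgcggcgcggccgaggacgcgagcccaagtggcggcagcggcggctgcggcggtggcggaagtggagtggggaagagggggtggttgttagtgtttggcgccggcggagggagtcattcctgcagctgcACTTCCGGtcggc
The GC content of the full 250-base windows was 52.8% for SMC3, 63.2% for SMC1A and 70.0% for NIPBL, with 17, 24 and 28 CpG dinucleotides. The SMC3 window had the lowest GC content of the 9 members with a window.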

How the data were processed

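RNA of 2 NC and 2 sh-IRF1 libraries of MV4-11 cells was extracted with TRIzol and prepared with a TruSeq kit, per the labels, and sequenced by a service company, per the study's methods. The submitters' processing notes name HISAT2 2.0.5 and hg38. The counting tool, annotation and use of strand are not given in the sources used here. The authors deposited a normalized signal: gene reads over a size factor that was the same for every gene of a library. All values lay within 0.001 of a whole read (largest distance 8.21e-05), so reads were recovered, and 100.0% came out whole. The table held 0 other columns of per-sample values. Symbols matched 23456 of 23622 identifiers.

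Genes that reached 10 in 2 or more libraries were tested with limma 3.58.1 (R 4.3.3; trend and robust shrinkage) on log2(value + 1), with Benjamini-Hochberg adjustment, and the script was tested on simulated data. Fold changes are on this scale and understate changes of low genes. Alternatives were TMM, upper-quartile and equal-total scaling, 2 other filters, pseudocounts of 0.5 and 5, no robust shrinkage, edgeR 4.0.16 and DESeq2 1.42.0 on recovered reads, a replicate block and each library left out. RPKM was computed here from recovered reads and the sum of all genes' reads. Lengths came from GENCODE 44, and promoter windows from RefSeq. Named genes were all members, IRF1, the 2 smallest p in each direction of the 3 other lists, untested list genes and the 5 genes closest to RAD21. SGO1, MAU2, ESCO2, DDX11, ESPL1, YY1, VEZF1, ZNF143, TOP2B, BPTF, SMC2, SMC5 and SMC6 were named after their values were seen. The members and lists were chosen with earlier results of these data known. Some marker genes are not reported here.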

Additional observations from a re-analysis of the deposited data

How the results depend on the processing

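RAD21, SMC1A, SMC3, STAG1, STAG2, WAPL and PDS5A kept their direction and their side of the adjusted p limit under all 15 alternatives. For STAG1 that was the side that does not pass. The members were chosen on this contrast, so this describes the fit and is not read as a test. No member or named list gene reversed. Of 180 checks of the 12 named list genes, 171 kept their side of the adjusted p limit and 9 lost it. The fold limit ended the call of ADNP with equal total reads and without NC 2, and was passed by DSCC1 with equal total reads (0.52) and without NC 1 (0.52), and by CDCA5 (0.52) and NSMCE1 (0.53) without NC 1. With equal total reads, which moves the median of all genes by 0.04 on the log2 scale, 1383 genes were higher and 878 lower, against 1168 and 1067, and 2 members were called lower against 3 (also 2 without sh-IRF1 1, where STAG2 fell short of the fold limit). The member median became -0.16, and it ranged from -0.25 to -0.19 with 1 library left out, where leaving out sh-IRF1 1 gave -0.19 and leaving out sh-IRF1 2 gave -0.25. At any fold, 2861 genes were higher and 3092 lower, and 1 member was higher and 7 lower. DESeq2 called 973 genes higher and 916 lower, and edgeR 1181 and 1061.

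The counts of the other lists are small and less stable. For the other cohesin genes, equal total reads gave 1 called higher and 1 with an adjusted p under 0.05 lower. DESeq2 gave 0 called lower and 0 lower at any fold. Leaving out 1 library gave 0 to 2 called higher (2 without NC 1), 0 to 1 called lower (0 without NC 1, NC 2 or sh-IRF1 1) and 0 to 2 lower at any fold. For condensin and SMC5/6 genes, 7 were higher at any fold with equal total reads, and leaving out 1 library gave 0 to 1 called higher and 2 to 4 higher at any fold (2 without sh-IRF1 1). For CTCF partners, 1 was called lower with equal total reads, and 1 to 2 with 1 library left out (1 without NC 2). RAD21 over the median of the other members was 5.43 by longest transcript and 11.3 by canonical transcript, the latter chosen after seeing the data.

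The same replicate numbers do not pair the samples by any label, and the deviations of same-numbered libraries correlated at 0.011 over 9987 genes. With the replicate number as a block 1174 genes were higher and 1066 lower, 3 members were called lower and 0 higher, and CTCF passed the adjusted p limit at a log2 fold change of -0.11. With 2 libraries a group, a lone library left after leaving one out is assumed to vary like the other group, and replicates differed by more than sampling noise (mean chi-square per gene 2.93 in NC and 2.47 in sh-IRF1).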
